A study of Mus musculus with 8 samples.

Results

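The genes described here belong to the unfolded protein response and the integrated stress response. They are 35 genes chosen by name, as chaperones, targets of the transcription factor ATF4 and genes of amino acid supply, out of 53801 genes counted, and all 35 were found and passed the filter on low counts. From textbook knowledge of their regulation they were sorted into 16 genes of the ATF6/XBP1 arm, 14 genes of the ATF4 arm and 5 sensors and transcription factors. Ddit3 and Herpud1 are known to answer to both arms, so the sorting is a simplification. Both the choice of genes and the sorting were made with earlier results of these data known.

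RNA sequencing was done on lumbar dorsal root ganglia of the mouse, which contain sensory neuron cell bodies along with glia, macrophages, fibroblasts and vessels. The injured side came from mice described as male C57BL/6J whose left L4 spinal nerve was tied tightly, collected 1, 3 and 7 days later; the contralateral side came from the same mice. Ganglia L3 to L5 were combined, so each injured library also holds neighbouring ganglia whose own nerve was not tied, and each library pools 3 mice. A left and a right library labelled no injury came from a further pool of 3 mice, and the labels do not say whether these had sham surgery. The titles of these libraries carry the tag WT, which those of the operated libraries do not. There is 1 library per side and day, so 8 libraries in all, and the day cannot be told apart from the pool of mice. Injury was always on the left, which only the pool labelled no injury can separate from body side.

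Unfolded proteins in the endoplasmic reticulum (ER) are sensed by 3 membrane proteins. ATF6 is cut to release a transcription factor and IRE1 (gene Ern1) splices the messenger RNA of XBP1, and both raise chaperones, disulphide isomerases and genes of ER-associated degradation. The third, PERK (gene Eif2ak3), phosphorylates eIF2, which slows translation in general while ATF4 protein is made; kinases outside the ER that sense amino acid shortage, haem shortage or double-stranded RNA do the same, which is why the ATF4 branch is called the integrated stress response. Sensory neurons with a cut axon are known to switch on stress-induced transcription factors such as ATF3. Gene counts show neither the splicing of Xbp1 nor the translation of Atf4.

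Totals ran from 20488115 to 21652688 reads per library, so that 3 reads equal about 0.14 CPM, the count of a gene scaled to the library's total, and the lowest count of any of the 35 genes was 34 reads. Sensory neuron markers summed to between 9856 and 11433 CPM in the 8 libraries. The libraries labelled no injury held 4931 and 4129 reads of Xist and 0 of Kdm5d, whereas the 6 operated libraries had at most 3 reads of Xist and at least 280 of Kdm5d, so the pool labelled no injury differs from the others in sex, against the labels. The contralateral library of day 1 stands apart in blood cell precursors: its 8 neutrophil markers summed to 489 CPM, against 21.7 CPM in the injured library of that day. The left library labelled no injury was high as well, at 262 CPM, against 70.9 CPM in the right one. In whole ganglia a change in the number of cells of a type and a change in RNA per cell cannot be told apart.

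The promoters of the 2 arms carry different known response elements. RefSeq promoter windows (build GRCm38.p6, 250 bases before to 50 after the start of transcription) were available for 31 of the 35 genes and were searched on both strands. The ER stress element ERSE, CCAAT and CCACG separated by 9 bases, is the site at which ATF6 and XBP1 act with NF-Y. It was found in 7 of 14 genes of the ATF6/XBP1 arm, in 0 of 13 of the ATF4 arm and in 0 of 4 sensors and factors, against 0.137% of all 27025 genes with a window. The composite element bound by ATF4 with C/EBP proteins, called CARE and searched as TGATGNAA, was found in 5 of 13 genes of the ATF4 arm, in 1 of 14 of the ATF6/XBP1 arm and in 4.51% of all genes. ERSE-II, ATTGG and CCACG separated by 1 base, was in 2 of the 14 (Herpud1 and Dnajb11) and in 0.0444% of all genes, and the XBP1 element TGACGTGG was in none and in 0.714% of all genes. Many of these genes are the ones on which the elements were first described, so the counts describe the list and are no independent support, and a match is not a bound site.

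The stretches below show the elements in capitals, 5′ to 3′ on the strand of the gene, in genes whose levels are described in the next paragraphs. They were chosen to set an ERSE gene that rose (Hspa5, Calr), the ERSE gene with the widest day 3 difference (Creld2) and one that did not rise (Dnajc3) beside genes with a CARE.
Hspa5, ERSE, chr2:34772020-34772048, plus strand: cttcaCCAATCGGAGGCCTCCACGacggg
Calr, ERSE read on the other strand, chr8:84847070-84847098, minus strand: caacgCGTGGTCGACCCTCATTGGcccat
Creld2, ERSE read on the other strand, chr15:88819515-88819543, plus strand: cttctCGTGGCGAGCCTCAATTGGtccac
Dnajc3, ERSE, chr14:118937822-118937850, plus strand: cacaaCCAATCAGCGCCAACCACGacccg
Herpud1, CARE read on the other strand and ERSE-II, chr8:94386309-94386395, plus strand: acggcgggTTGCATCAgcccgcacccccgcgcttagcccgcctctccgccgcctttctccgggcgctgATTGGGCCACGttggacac
Chac1, CARE read on the other strand, chr2:119351038-119351067, plus strand: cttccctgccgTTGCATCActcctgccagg
Trib3, CARE read on the other strand, chr2:152344028-152344057, minus strand: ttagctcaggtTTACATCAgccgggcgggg
Asns, CARE, chr6:7693214-7693243, minus strand: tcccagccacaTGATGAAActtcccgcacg
Slc7a11, CARE on each strand, chr3:50443652-50443680, minus strand: cTGATGCAAacctggagaatTTGCATCAt
Herpud1 is the single gene of the list whose window held elements of both kinds.

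Across the 3 operated pools, about as many of the stress genes rose on the injured side as missed the threshold, and none fell. By edgeR's quasi-likelihood test, with pools as blocks and adjusted p under 0.05 over all 16244 genes tested, 18 of the 35 genes rose and 0 fell; over all genes tested 10.1% rose and 8.02% fell. Without adjustment 26 of the 35 had p under 0.05 and were higher, and 0 were lower; of all genes tested 3012 were higher and 2629 lower at that level. The median log2 fold change was 0.33 for the 35 genes and 0.016 for all genes tested. The ATF4 arm had 9 of 14 genes higher with a median of 0.51, the ATF6/XBP1 arm 5 of 16 with a median of 0.16, and the sensors and factors 4 of 5 with a median of 0.35. DESeq2 called 0 of the 35 lower as well. In 22 of the 35 genes all 3 injured libraries lay above all 5 others in CPM, against 11.5% of all genes tested. These counts rest on few pools. Of the 35 genes, 8 rose without the pool of day 3, 9 without that of day 7, 10 without the pool labelled no injury and 22 without that of day 1. The numbers of all genes that rose were 651, 475, 763 and 2382, in the same order, against 1644 with all pools. With body side as a further term, which only the pool labelled no injury sets, 0 of the 35 and 6 of all genes passed the test. The fitted values of the 18 genes then had a median of 0.41, against 0.40 without that term, and ran from 0.25 to 1.23; 2 of them moved by over 1.5 times, Ddit3 (0.25, against 0.55) and Slc3a2 (0.52, against 0.35).

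**Figure D1:**
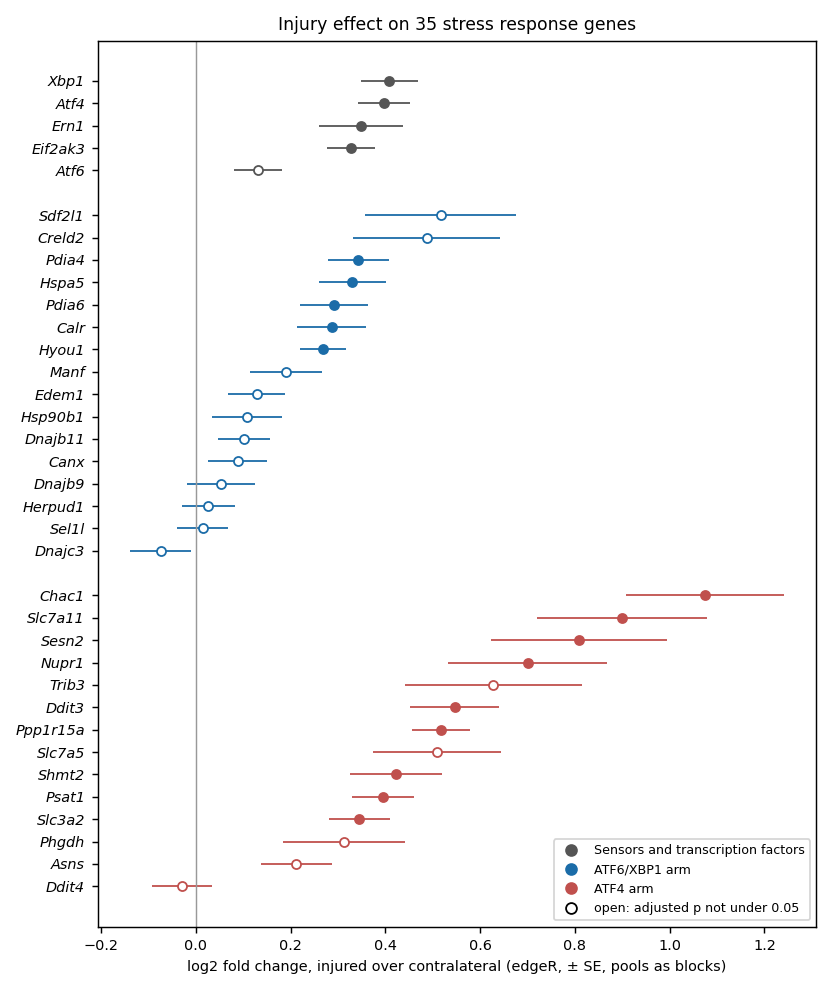
Injury effect of the 35 genes as log2 fold change of injured over contralateral ganglia (x axis, points with SE bars, edgeR with pools as blocks, 3 injured pools), with 1 gene per row in 3 groups. Filled points passed adjusted p under 0.05: 4 of 5 sensors and factors, 5 of 16 genes of the ATF6/XBP1 arm and 9 of 14 of the ATF4 arm, where Chac1 has the highest value, 1.07.

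Among the sensors and transcription factors, Atf4, Xbp1, Eif2ak3 and Ern1 rose 1.25 to 1.33-fold and Atf6 did not pass the test. Atf4 (chromosome 15, 80255184 to 80257541, GRCm38) had, at days 1, 3 and 7 in turn, 262, 236 and 261 CPM in injured ganglia, against 212, 174 and 190.1 CPM in contralateral ganglia, and the left and right no injury libraries had 170.4 and 169.7 CPM. All 3 injured libraries were above all others, and the side difference was about the same on each day, with log2 ratios of 0.33, 0.40 and 0.45. Its fitted fold change was 1.32 (log2 0.40 ± 0.05, SE, 3 injured pools; edgeR adjusted p = 0.0047). Xbp1 had 125, 129 and 112 CPM on the injured side, against 93.4, 88.9 and 92.2 CPM contralaterally and 81.4 and 82.3 CPM without injury, and its injured values did not overlap with any other library. Its log2 fold change was 0.41 ± 0.06 (adjusted p = 0.0059), and its side ratio was lowest at day 7, at 0.28, after 0.45 and 0.50.

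Eif2ak3, the gene of PERK, was at 90.1, 83.1 and 83.5 CPM in injured ganglia, against 70.7, 66.1 and 67.1 CPM in contralateral ganglia and 67.9 and 69.0 CPM without injury (log2 0.33 ± 0.05, edgeR adjusted p = 0.0074). Ern1, the gene of IRE1, was at 18.3, 21.3 and 21.7 CPM, against 16.4, 14.0 and 17.6 CPM and, without injury, 17.4 and 16.9 CPM (log2 0.35 ± 0.09, adjusted p = 0.033). For Eif2ak3 and Ern1 the contralateral libraries lay around the level without injury, and the injured libraries above both. DESeq2 did not call Ern1. Atf6 was at 81.4 to 87.8 CPM on the injured side, against 75.2 to 77.4 CPM contralaterally and 78.4 and 76.9 CPM without injury, a log2 difference of 0.13 ± 0.05 that missed the threshold (adjusted p = 0.11). Its injured libraries were also above all 5 others, by a small margin.

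**Figure D2:**
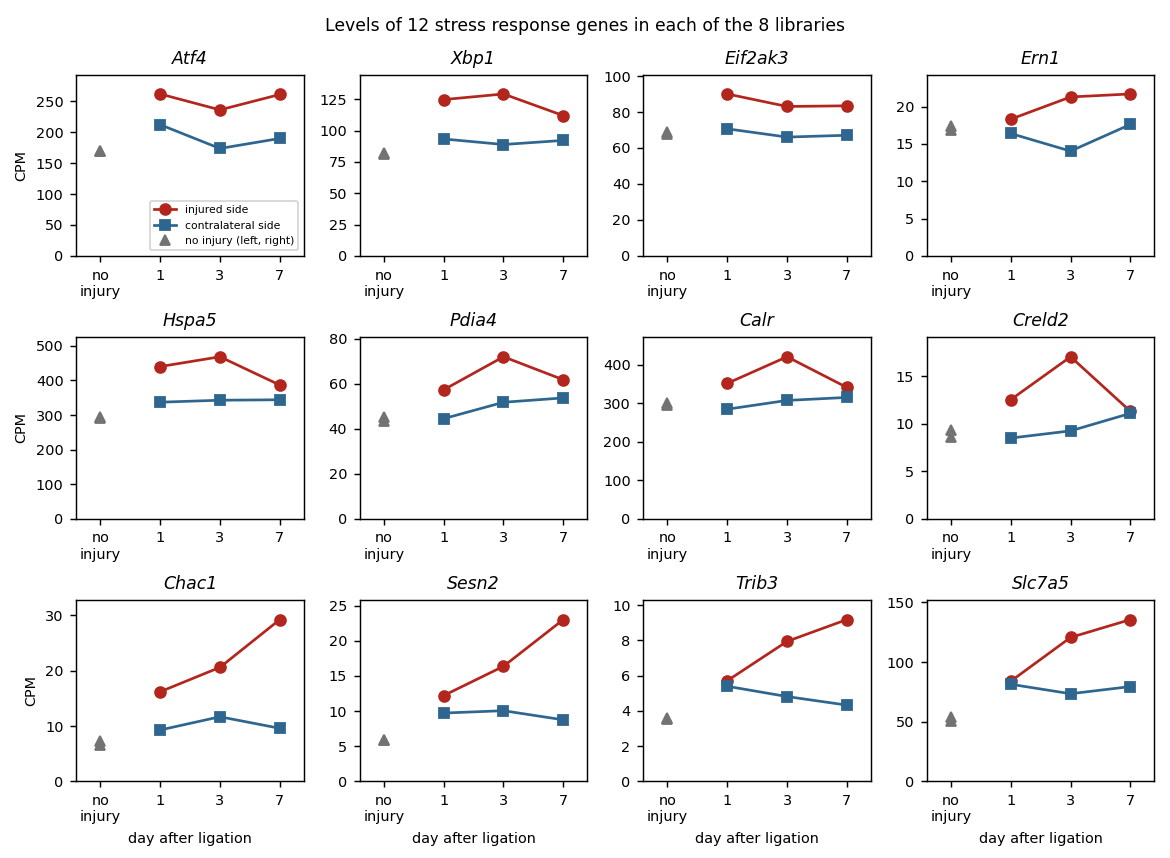
Levels of 12 of the genes in CPM (y axis, linear from 0) against the day after ligation (x axis), with injured libraries as red circles, contralateral libraries as blue squares and both libraries labelled no injury as grey triangles, 1 library per point. In the top and middle rows the red line runs above the blue line on each day and meets it at day 7 for Creld2, at 11.3 and 11.1 CPM; in the bottom row the distance is widest at day 7, where Chac1 had 29.3 CPM on the injured and 9.60 CPM on the contralateral side.

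In the ATF6/XBP1 arm 5 genes rose, all of them genes of ER chaperones or disulphide isomerases and all by less than 1.3-fold. Hspa5 (chromosome 2, 34771970 to 34777547), which encodes the ER chaperone BiP, had 440.3, 469 and 387 CPM on the injured side, against 337, 343 and 344 CPM contralaterally and 294 and 291 CPM without injury. Its injured values lay above all others and were lowest at day 7, and the 3 contralateral values were nearly equal. The fitted log2 fold change was 0.33 ± 0.07 (adjusted p = 0.020). Calr, the lectin chaperone calreticulin, had 351, 421 and 341 CPM, against 284, 307 and 315 CPM contralaterally and 294 and 301 CPM without injury (log2 0.29 ± 0.07, adjusted p = 0.034). Pdia4, a disulphide isomerase, was at 57.4, 72.1 and 61.8 CPM, against 44.5, 51.8 and 53.8 CPM and, without injury, 43.6 and 45.1 CPM (log2 0.34 ± 0.06, adjusted p = 0.014). For Hspa5, Calr and Pdia4 the injured and contralateral values were closest at day 7.

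The remaining ones were Hyou1, an ER chaperone of the HSP110 kind that acts as exchange factor for BiP, and the isomerase Pdia6. Hyou1 was at 108, 122 and 111 CPM on the injured side, against 89.7, 98.8 and 93.4 CPM contralaterally (log2 0.27 ± 0.05, edgeR adjusted p = 0.013), with nearly even log2 ratios of 0.30, 0.26 and 0.24. Pdia6 was at 133, 163 and 131 CPM, against 109, 116 and 122 CPM (log2 0.29 ± 0.07, adjusted p = 0.031). Without the pool of day 3, 1 gene of this arm rose (Hyou1), and without the pool labelled no injury 2 did (Pdia4 and Hyou1). Of all genes tested 651 and 763 rose in these fits, against 1644 with all pools.

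Creld2 and Sdf2l1, small ER proteins that are among the more inducible ones of the response, had the highest fitted values of the arm but missed the threshold. Creld2 was at 12.5, 17.1 and 11.3 CPM on the injured side, against 8.50, 9.26 and 11.1 CPM contralaterally and 8.58 and 9.33 CPM without injury (log2 0.49 ± 0.15, adjusted p = 0.066). The sides were apart at days 1 and 3 and level at day 7. Its fold between sides was 1.79 at day 3 (95% counting interval 1.504 to 2.14, from 361 and 198 reads) and 1.02 at day 7 (0.84 to 1.22, from 239 and 236 reads); such intervals cover counting error only. Sdf2l1 was at 13.6, 17.8 and 11.4 CPM, against 11.4, 8.88 and 9.32 CPM and, without injury, 7.95 and 9.88 CPM (log2 0.52 ± 0.16, adjusted p = 0.062). Its day 3 value carries much of that difference, with a fold of 1.95 (1.64 to 2.34) against 1.22 on each of the other days.

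The other 9 genes of the arm had log2 values between -0.07 and 0.19, and none of them passed the test. Manf, a secreted ER protein known as a neurotrophic factor, had 58.7, 60.1 and 50.0 CPM, against 47.5, 49.1 and 50.5 CPM. It was above the contralateral side at days 1 and 3 and not at day 7; its exons overlap Dcaf1 on the other strand and Rbm15b on its own, and no source states how such reads were counted. Hsp90b1, the ER form of HSP90 and one of the most abundant genes of the list, had 401, 446 and 389 CPM, against 358, 376 and 409 CPM, so its groups overlapped. The co-chaperones Dnajb9, Dnajb11 and Dnajc3, the lectin chaperone Canx and the degradation genes Edem1, Sel1l and Herpud1 had fitted values of 0.05, 0.10, -0.07, 0.09, 0.13, 0.01 and 0.03 on the log2 scale, in that order. Herpud1, whose promoter stretch with both elements is shown above, lay between 55.5 and 59.6 CPM in all 8 libraries. Genes with an ERSE were not uniform either: they ranged from Dnajc3 (-0.07) to Creld2 (0.49), and Hspa5, Calr and Pdia6 were the 3 of 7 that rose.

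In the ATF4 arm 9 genes rose over the contralateral side, by 1.27 to 2.11-fold. Among them were Chac1, Slc7a11 and Psat1, genes of glutathione breakdown, cystine import and 1 step of serine synthesis. The injured libraries of Slc7a11 nevertheless stayed below both libraries labelled no injury, at day 1 only narrowly. Chac1 (chromosome 2, 119351229 to 119354381), which encodes a glutathione-degrading enzyme, had 16.2, 20.6 and 29.3 CPM on the injured side, against 9.30, 11.7 and 9.60 CPM contralaterally and 6.56 and 7.25 CPM without injury. The injured values were above all others and highest at day 7, with a fold between sides of 1.78 (1.49 to 2.13), 1.72 (1.47 to 2.01) and 3.04 (2.59 to 3.57) at days 1, 3 and 7. The fitted log2 fold change was 1.07 ± 0.17 (adjusted p = 0.0098). Sesn2, the leucine-sensing inhibitor of mTORC1 signalling, showed the same order, with 12.2, 16.4 and 23.0 CPM on the injured side, against 9.72, 10.1 and 8.76 CPM contralaterally and 5.83 and 5.96 CPM without injury (log2 0.81 ± 0.19, adjusted p = 0.030). Its fold between sides was 1.28 (1.06 to 1.55) at day 1 and 2.62 (2.21 to 3.12) at day 7. Without the pools of day 3, of day 7 or labelled no injury, 4, 3 and 5 of the 14 genes rose, and Chac1 was among them each time. Of all genes tested 651, 475 and 763 rose in these fits, against 1644 with all pools.

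Ddit3, the gene of the pro-apoptotic factor CHOP, had 37.7, 28.8 and 34.7 CPM in injured ganglia, against 27.5, 20.7 and 21.1 CPM in contralateral ganglia and 19.3 and 15.6 CPM without injury (log2 0.55 ± 0.09, edgeR adjusted p = 0.010). Each injured library was above all others, but the injured library of day 3 only narrowly so. Its exons overlap Mars, a methionyl-tRNA synthetase gene on the other strand that rose as well (log2 0.26), so reads of the 2 genes may not be separable. Ppp1r15a, which encodes GADD34, the phosphatase subunit that reverses eIF2 phosphorylation, had 83.5, 47.8 and 52.0 CPM, against 56.1, 35.4 and 35.6 CPM and, without injury, 37.4 and 36.2 CPM (log2 0.52 ± 0.06, adjusted p = 0.0029). Both sides were highest at day 1, so the contralateral library of day 1 was above the injured ones of days 3 and 7, while the side ratio stayed at 0.61, 0.40 and 0.54 on the log2 scale. Nupr1, a small stress-induced nuclear protein, had 9.66, 10.4 and 7.57 CPM, against 6.15, 4.54 and 6.26 CPM contralaterally and 7.71 and 7.34 CPM without injury (log2 0.70 ± 0.17, adjusted p = 0.028). Its injured libraries overlapped with those labelled no injury, as the contralateral ones lay below them.

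Trib3, the pseudokinase that restrains ATF4 signalling, was close to even at day 1 and apart later. It had 5.71, 7.95 and 9.18 CPM on the injured side, against 5.40, 4.82 and 4.33 CPM contralaterally and 3.52 and 3.602 CPM without injury. The fold between sides was 1.08 (0.83 to 1.41) at day 1 and 2.11 (1.64 to 2.74) at day 7, and the fit over the pools missed the threshold (log2 0.63 ± 0.19, adjusted p = 0.054). Ddit4, the mTORC1 inhibitor REDD1, was at 56.2, 75.2 and 59.9 CPM, against 64.1, 70.4 and 59.1 CPM, with overlapping groups and a log2 value of -0.03 ± 0.06 (adjusted p = 0.78).

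Amino acid supply was split between transporters and synthesis enzymes that rose and others that missed the threshold. Slc7a5, the large neutral amino acid transporter LAT1, had 83.9, 121 and 136 CPM on the injured side, against 81.4, 73.5 and 79.5 CPM contralaterally and 50.8 and 53.9 CPM without injury. The sides were level at day 1, with a fold of 1.05 (0.98 to 1.13), and apart at day 7, with a fold of 1.70 (1.601 to 1.81); over the pools its log2 value was 0.51 ± 0.14 (adjusted p = 0.051). Slc3a2, the heavy chain that carries LAT1 and the cystine transporter to the membrane, rose, with 180.3, 174 and 171 CPM against 152, 133 and 128 CPM contralaterally and 105 and 117 CPM without injury (log2 0.35 ± 0.06, adjusted p = 0.013). Slc7a11, the cystine/glutamate exchanger xCT, had the lowest level per length of the list and stood at 3.86, 3.64 and 3.27 CPM on the injured side, against 2.25, 1.59 and 1.93 CPM contralaterally and 4.29 and 3.93 CPM without injury. It was higher on the injured than on the contralateral side (log2 0.90 ± 0.18, edgeR adjusted p = 0.016). Every injured library was nevertheless below both libraries labelled no injury, a pool that differs in sex. At day 1 the margin was narrow, with 79 reads against 89 and 85 reads without injury.

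Of the serine and one-carbon enzymes, Psat1 and Shmt2 rose. Psat1 had 64.0, 79.2 and 87.5 CPM in injured ganglia, against 55.7, 57.0 and 61.1 CPM in contralateral ganglia and 51.7 and 49.6 CPM without injury (log2 0.39 ± 0.07, edgeR adjusted p = 0.0092). Shmt2, the mitochondrial serine hydroxymethyltransferase, had 30.3, 34.2 and 38.3 CPM, against 28.0, 22.3 and 26.2 CPM and, without injury, 20.2 and 22.3 CPM (log2 0.42 ± 0.10, adjusted p = 0.025). Phgdh, the first enzyme of serine synthesis, was at 6.39, 9.55 and 12.9 CPM, against 5.96, 7.58 and 9.13 CPM and, without injury, 7.18 and 8.82 CPM, with overlapping groups (log2 0.31 ± 0.13, adjusted p = 0.13). Asns, asparagine synthetase, had 207, 218 and 244 CPM, against 197, 197 and 181 CPM and, without injury, 163 and 166 CPM (log2 0.21 ± 0.08, adjusted p = 0.088). All 3 injured libraries of Asns were above all others although the test was missed.

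By day, the 2 arms had like medians at day 1 and different ones afterwards. The median log2 side ratio of the ATF6/XBP1 arm was 0.24, 0.23 and 0.06 at days 1, 3 and 7, and that of the ATF4 arm was 0.25, 0.51 and 0.54. The ATF6/XBP1 minus ATF4 difference was thus -0.01, -0.28 and -0.48 on the log2 scale. Left over right in the pool labelled no injury gave medians of -0.03 and -0.04 for the ATF6/XBP1 and the ATF4 arm, a difference of 0.01. The medians of all genes tested were 0.01, 0.02 and 0.003 at days 1, 3 and 7. Sensors and factors had medians of 0.33, 0.40 and 0.29. These values rest on 1 library per side and day and were given no test.

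**Figure D3:**
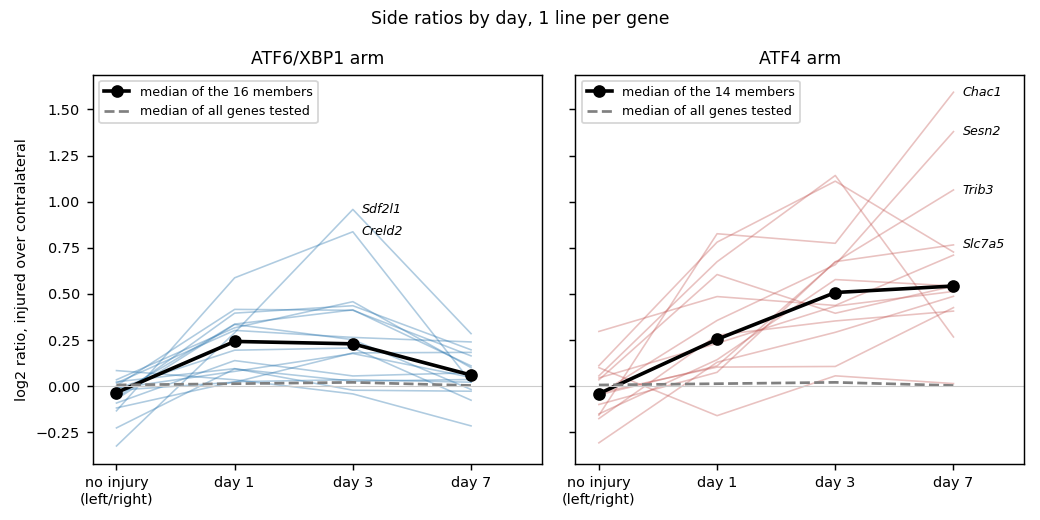
Log2 ratio of injured over contralateral library (y axis) in each pool (x axis; left over right for the pool labelled no injury), with 1 thin line per gene, the median of the arm as a black line and the median of all genes tested as a dashed line. At day 7 the median is 0.06 for the 16 genes of the ATF6/XBP1 arm and 0.54 for the 14 genes of the ATF4 arm, after 0.24 and 0.25 at day 1.

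Most genes of each arm moved the same way as its median. In the ATF6/XBP1 arm 15 of 16 genes had a lower side ratio at day 7 than at day 1 (the exception was Edem1), and in the ATF4 arm 11 of 14 had a higher one at day 7 (the exceptions were Ppp1r15a, Slc7a11 and Nupr1). The share with a higher ratio at day 7 than at day 1 was 46.7% of all genes tested and 69.8% of the genes that rose with injury. The 11 of 14 genes of the ATF4 arm are thus near the share of the genes that rose, and are not particular to the arm. In the ATF6/XBP1 arm 1 of 16 genes is below both shares. The ratio was highest at day 1, 3 or 7 in 7, 8 and 1 genes of the ATF6/XBP1 arm and in 1, 4 and 9 genes of the ATF4 arm. The shares were 38.7%, 33.9% and 27.4% over all genes tested, and 11.3%, 45.3% and 43.5% over the genes that rose with injury. These ratios depend on both sides. Summed over the ATF6/XBP1 arm, injured ganglia had 2452, 2700 and 2373 CPM in order of day, against 2126, 2222 and 2271 CPM contralaterally. Its injured sum was thus highest at day 3, while its contralateral sum rose throughout. The ATF4 arm summed to 797, 846 and 908 CPM in injured ganglia, against 701, 649 and 632 CPM contralaterally. Abundant genes weigh most in such sums. Ratios of 1.5-fold or more were found in 1, 2 and 0 genes of the ATF6/XBP1 arm (Creld2, then Creld2 and Sdf2l1) and in 4, 6 and 6 genes of the ATF4 arm, against 5.96%, 15.4% and 9.28% of all genes tested.

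The ATF4 genes beyond 1.5-fold were not the same on each day. At day 1 they were Chac1, Slc7a11, Nupr1 and Ppp1r15a. At day 3 they were Nupr1, Slc7a11, Chac1, Slc7a5, Trib3 and Sesn2, and at day 7 Chac1, Sesn2, Trib3, Slc7a5, Slc7a11 and Ddit3. The highest log2 ratio of the arm was that of Chac1 at day 1 (0.83), of Nupr1 at day 3 (1.14) and of Chac1 again at day 7 (1.59).

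The time course was tested as a slope of the side difference over the log2 of the day, and no gene was called. By edgeR's quasi-likelihood test 0% of the 16244 genes passed adjusted p under 0.05, while 596 had a positive and 703 a negative slope at unadjusted p under 0.05; DESeq2 called 37 and 12. None of the 35 genes was called by edgeR or DESeq2. The slope was positive in 7603 of all 16244 genes tested. It was positive in 11 of 14 genes of the ATF4 arm and negative in 14 of 16 of the ATF6/XBP1 arm. Among the 35 genes there were 4 positive slopes at unadjusted p under 0.05, all in the ATF4 arm, and 1 negative slope. The positive ones were Slc7a5, at 0.25 per doubling of days (edgeR adjusted p = 0.28), Sesn2, at 0.36 (adjusted p = 0.34), Trib3, at 0.35 (adjusted p = 0.52), and Chac1, at 0.26 (adjusted p = 0.62). The negative one was Manf, at -0.12 (adjusted p = 0.62). The difference between the arms at days 3 and 7 was therefore described and not tested.

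Markers of other cell types moved with the days too. The sum of 8 macrophage markers was 1.03, 3.65 and 2.36 times as high on the injured as on the contralateral side at days 1, 3 and 7, that of 6 fibroblast markers 1.47, 2.97 and 1.45 times, and that of 6 myelinating Schwann cell markers 1.03, 1.69 and 1.07 times. Of these markers 1, 3 and 0 rose by the edgeR test of the injury effect. All 3 sums had their highest ratio at day 3, as did 8 of the 16 genes of the ATF6/XBP1 arm. The same held for 45.3% of all genes that rose with injury. Sums of neutrophil, endothelial, cycling cell and erythroid markers also had their highest ratio at day 3, at 1.81, 1.75, 5.01 and 2.64 times. At day 1, when the contralateral library was high in neutrophil markers, they stood at 0.044, 1.09, 0.11 and 0.42 times, in the same order. Satellite glia markers stood at 1.10, 1.35 and 1.26 times, and 3 of 6 rose. Sensory neuron markers stood at 0.97, 0.97 and 1.08 times, or 0.96, 0.87 and 0.92 times without Tubb3, and 4 of 8 fell (Rbfox3, Snap25, Isl1 and Scn9a). Of 8 markers of plasma and B cells, which have a large ER, Tnfrsf17 had 0 CPM in all injured libraries and Mzb1 at most 0.19 CPM there; their summed level was 97.5, 166 and 188 CPM on the injured side, against 87.4, 77.0 and 74.2 CPM contralaterally, and Sdc1, which other cells express, gave the rise of the sum (61.6, 144 and 163 CPM, against 36.2, 56.1 and 43.6 CPM). Ighm was at 33.8, 20.3 and 23.0 CPM in injured ganglia, against 41.7, 19.2 and 28.6 CPM in contralateral ganglia, and Cd79a fell (log2 -1.24, edgeR adjusted p = 0.028). The part of these cells in the values of the stress genes was not tested.

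Several ATF4 targets had higher values on the contralateral side than in the libraries labelled no injury, but none passed the test. By edgeR 47 of 16747 genes differed between the 3 contralateral libraries and the libraries labelled no injury taken as 1 sample (0.281%), and none of the 35 did. At unadjusted p under 0.05 there were 7 higher (Slc7a5, Sesn2, Hspa5, Slc3a2, Chac1, Asns and Ddit3) and 1 lower (Slc7a11); of all 16747 genes 687 were higher and 793 lower at that level. The log2 difference of contralateral over no injury was 0.58 ± 0.09 for Slc7a5 (edgeR adjusted p = 0.063), 0.70 ± 0.18 for Sesn2 (adjusted p = 0.26), 0.57 ± 0.19 for Chac1 (adjusted p = 0.41), 0.23 ± 0.07 for Hspa5 (adjusted p = 0.39) and -1.08 ± 0.28 for Slc7a11 (adjusted p = 0.28). DESeq2 called Slc7a5 higher (adjusted p = 0.00015). The calls changed with the contralateral library left out, for the 35 genes and for all genes, as the closing section gives. Each such fit sets the remaining contralateral libraries against 1 summed sample. The contralateral libraries were above the mean without injury on all 3 days in 9 of 14 genes of the ATF4 arm and in 5 of 16 of the ATF6/XBP1 arm, against 25.8% of all genes tested. Outside the 35 genes, Atf3 had 126, 167 and 110.1 CPM contralaterally, against 10.89 and 10.99 CPM without injury, a log2 difference of 3.63. The side ratio of such a gene is smaller than its difference from the libraries labelled no injury. The pools compared here also differ in sex, and the effects of surgery and of sex cannot be told apart.

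**Figure D4:**
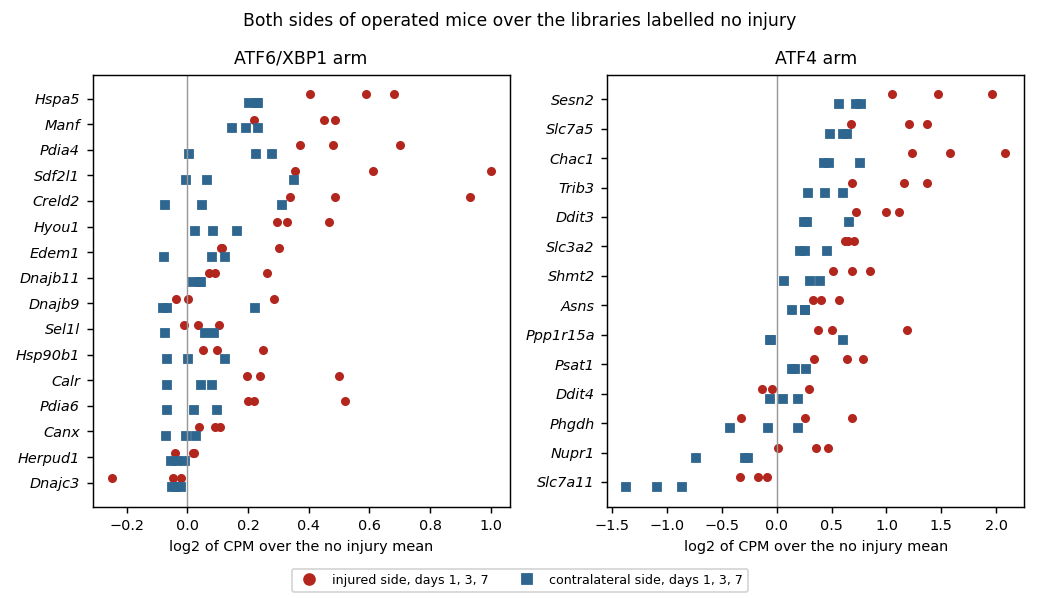
Levels over the mean of both libraries labelled no injury (x axis, log2 of the ratio of CPM) for each gene of the ATF6/XBP1 arm (left) and the ATF4 arm (right), with injured libraries as red circles and contralateral libraries as blue squares, 3 each. Sesn2, Slc7a5 and Chac1 have all 6 points right of 0 with the injured ones farther out, and Slc7a11 has all 6 left of 0.

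Seen from the libraries labelled no injury, the day 7 injured ganglia had 4.24 times the level of Chac1, 3.90 times that of Sesn2, 2.59 times that of Slc7a5 and 2.58 times that of Trib3. The contralateral ganglia of that day had 1.39, 1.49, 1.52 and 1.22 times the level, in the same order of genes. Hspa5 in injured ganglia was at 1.504, 1.601 and 1.32 times the level without injury at days 1, 3 and 7, and in contralateral ganglia at 1.15 to 1.18 times.

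Among 72 other genes of the same pathways, of which 68 were tested, 22 rose and 1 fell. Over all genes tested 10.1% rose and 8.02% fell. Of 29 further genes of the integrated stress response 16 rose and 0 fell, with a median log2 value of 0.29, while of 32 further genes of ER folding and degradation 6 rose and 1 fell, with a median of 0.08. A last list of 7 genes held Eif2ak1, Eif2ak2, Eif2ak4, Eif2s1 and Ppp1r15b, and also Bbc3 and Tnfrsf10b, which are not eIF2 kinases or their partners. Of these 7 genes 0 were called by edgeR, and 2 had an unadjusted p under 0.05. The kinase gene Eif2ak3 and the phosphatase subunit gene Ppp1r15a, which both rose, are counted among the 35 genes instead. The difference between these lists was not tested, and the lists were chosen with earlier results of these data known. Atf3, a transcription factor of the integrated stress response and a marker of axotomised neurons, had 464, 629 and 618 CPM on the injured side, against 126, 167 and 110.1 CPM contralaterally and 10.89 and 10.99 CPM without injury (log2 2.09 ± 0.12, adjusted p = 0.00085). The fitted value is above that of each of the 35 genes, although the contralateral libraries were themselves above those labelled no injury.

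Sec24d, a component of the coat of vesicles that leave the ER, had 27.3, 38.1 and 32.3 CPM, against 19.91, 21.04 and 19.96 CPM (log2 0.67 ± 0.08, edgeR adjusted p = 0.0028). Cebpb, a partner of ATF4 at the CARE, rose by 0.70 ± 0.11 (adjusted p = 0.0078) and its relative Cebpg by 0.29 ± 0.05 (adjusted p = 0.013). Of the tRNA synthetases, Cars rose by 0.56 ± 0.08 (adjusted p = 0.0061) and Aars by 0.42 ± 0.07 (adjusted p = 0.0089). Crebrf, a regulator of the unfolded protein response named here as the only one of the 68 that fell, had 67.0, 49.4 and 54.2 CPM on the injured side, against 76.5, 62.8 and 72.1 CPM contralaterally (log2 -0.32 ± 0.07, adjusted p = 0.020). The lowest trend p-values of these genes were those of Vldlr, Mthfd2, Cars and Jdp2, with slopes of 0.19, 0.20, 0.15 and 0.22 per doubling of days, in that order, and none passed the threshold (adjusted p = 0.45 to 0.58).

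Levels per length differed widely within the list. As RPKM, which is CPM divided by the exon length in kilobases, averaged over the 8 libraries, Calr (113), Hsp90b1 (97.0), Canx (89.8), Atf4 (88.9), Hspa5 (85.9) and Asns (71.9) were the most abundant, and Slc7a11 (0.22), Ern1 (2.19) and Trib3 (2.62) the scarcest. The genes with the highest side ratios at day 7, Chac1 (8.44), Sesn2 (3.31) and Trib3, were among the scarcer ones, while Asns had a log2 ratio of 0.43 on that day.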

How the data were processed

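Whole-number read counts per gene were used as deposited for all 8 libraries; per the submitters' processing notes, which give no roles, the authors used STAR 2.5.4a, featureCounts 1.6.3, cutadapt 1.16 and DESeq2 with GRCm38. Gene names and positions came from GENCODE M21, which matched 53706 of 53801 gene IDs. Counts were tested in R 4.3.3 by the quasi-likelihood test of edgeR 4.0.16 (TMM, filterByExpr with a minimum count of 10 by injured state, Benjamini-Hochberg at 0.05).

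The injury effect used all 8 libraries with pool as a block (3 residual degrees of freedom), the trend added injured state by log2 of the day (2), and the contralateral comparison took both libraries labelled no injury as 1 summed sample assumed to vary like the others (2). The blocks come from the design, since both sides come from the same mice; the sides' deviations from group means had correlations of 0.25 (day 1), -0.06 (day 3) and 0.36 (day 7). The p-value of the injury effect reflects how the side difference varies between pools. As each day is 1 pool, a side difference that changes with the day counts as error in that test. The p-value of the trend reflects what is left around the slope, and that of the contralateral comparison the spread among the contralateral libraries. Side ratios used TMM log2 CPM with a prior count of 2 and have no test; their intervals are exact binomial intervals at 95%. No pair of libraries agreed within sampling noise (lowest chi-square per gene 6.46). The scripts were tested on simulated counts. Alternatives were DESeq2 1.42.0 and its size factors, limma-voom (limma 3.58.1), no filter, no block, a side term, day in place of its log2, other prior counts and leaving out pools. Of the 35 genes 9 overlap exons of another gene.

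The genes, arms and lists were chosen with earlier results of these data known. All 35 genes were named, and of the other pathway genes the 6 with the lowest p among those past the threshold and the 4 with the lowest trend p.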

Additional observations from a re-analysis of the deposited data

How the results depend on the processing

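With body side as a further term 0 of the 35 genes passed the test (0 in each arm), while 6 of all genes rose and 0 fell; the median log2 value of the 18 genes was 0.41 with the term and 0.40 without it. Leaving out 1 pool at a time gave 8 to 22 genes higher, 1 to 6 in the ATF6/XBP1 arm and 3 to 12 in the ATF4 arm, and 475 to 2382 of all genes higher and 156 to 2287 lower. Without the replicate block the numbers higher were 20 of the 35, 7 in the ATF6/XBP1 arm and 9 in the ATF4 arm, and no trend was called. DESeq2, its size factors, limma-voom and no filter gave 18 to 21. The sign turned for Sel1l (-0.0083 with the side term, and -0.027 to 0.035 with 1 pool left out) and Ddit4 (0.0046 without the replicate block, and -0.072 to 0.033 with 1 pool left out), both near 0. For the trend over all genes 9 were called higher with DESeq2's size factors, 29 higher and 3 lower without the filter, and 37 and 12 by DESeq2; no alternative called any of the 35. For contralateral against no injury, where 21 of all genes were higher and 26 lower, no filter gave 276 and 422, DESeq2 87 and 75, and the left and right libraries entered separately 188 and 184. Leaving out 1 contralateral library gave 13 to 447 higher and 3 to 507 lower. Of the 35 genes 2 were higher and 1 lower without the filter, 1 higher by DESeq2, 3 higher and 1 lower with separate libraries, and 0 to 3 higher and 0 to 1 lower with 1 library left out. The arm medians by day moved by less than the SD of the same arm's medians across the days under each prior count, scaling and reference tried. That SD holds the change by day itself, so this is a loose limit and no measure of noise. The causes of these changes were not tested. Depth limits the scarce genes most: Slc7a11 had 34 to 89 reads.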
